A study of Arabidopsis thaliana with 15 samples.

Results

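This account covers the whole transcriptome of Arabidopsis thaliana seedlings after 3 h of abscisic acid (ABA), set against untreated seedlings. The genes were chosen by level alone: of 22526 rows in the count table, 18876 had a mean of at least 1 CPM (the read count scaled to library size) over the 5 conditions of the series, and 18872 of these could be given a ratio between ABA 3 h and the control. ABA is the hormone that plants make when water runs short. Wild-type plants of the Columbia (Col-0) ecotype were used throughout, with no mutant or transgene in any group. All groups had grown on solid Murashige and Skoog medium with sucrose, had spent the last day in liquid medium with the same sugar, and were 14 days old. The control was harvested before any treatment, and the ABA 3 h group after 3 h in liquid medium with 20 µM ABA, from a stock in methanol. The other groups had ABA for 1 h, or lay on filter paper for 1 h or 3 h (dehydration).

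Each condition had 3 biological replicates, 15 samples in all, but the tables analysed here hold 1 combined column per condition. No difference below therefore has a replicate check, no p-value is given, and the 95% intervals in brackets after a log2 ratio cover counting error only. The replicates of a condition also shared a sequencing pool, so condition and pool cannot be told apart. Because the control was taken before treatment, the comparison also spans 3 h of light and of handling, and no solvent-treated column is used here. The control column held 180444972 reads and the ABA 3 h column 204315702, so a count of 3 reads, the floor used for ratios, was worth 0.017 CPM and 0.0155 CPM. In whole seedlings fewer cells of a type and less RNA per cell cannot be told apart.

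In the known pathway, ABA binds soluble receptors of the PYR/PYL family, and the bound receptor blocks clade A protein phosphatases (PP2C). Kinases of the SnRK2 family are then free to act, and among their targets are bZIP factors (the ABFs and ABI5) that bind a promoter sequence called the ABA-responsive element (ABRE). Many of the genes reached in this way protect cells that lose water, among them those for late embryogenesis abundant (LEA) proteins and dehydrins, which are small hydrophilic proteins also stored in dry seeds.

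After 3 h of ABA, 1721 genes exceeded the control by 2-fold or more and 1471 lay 2-fold or more under it, while 15680 lay within 2-fold. These are 9.12% and 7.79% of the genes measured, 16.9% together, and the counts of gene groups below are to be read beside these shares. In what follows a gene called higher or lower differed by at least 2-fold from the control. The higher genes reached further: 598 higher against 342 lower genes differed by 4-fold or more, 231 against 68 at 10-fold, and 51 against 2 at 100-fold. The median log2 ratio of all measured genes was 0.01. For 1499 of the higher and 1216 of the lower genes, the whole counting interval lay beyond 2-fold. With upper-quartile scaling the split turned, with 1504 genes higher and 1734 lower, and with scaling to the total count it was 1602 and 1608.

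The higher genes took 4.56% of all reads in the control and 16.1% after ABA 3 h. The lower genes took 10.6% before and 3.75% after. The 2-fold limit was crossed most often among genes of low level. Of 3381 genes with a mean CPM of 1 to 5, 12.5% were higher and 16.4% lower, against 7.92% and 4.67% of the 7390 genes with a mean CPM of 20 to 100. The share higher did not fall steadily with level. It was 11.1% of 1873 genes with a mean CPM of 100 to 500 and 11.4% of 236 genes at 500 or more, with 4.27% and 8.05% lower.

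**Figure D1:**
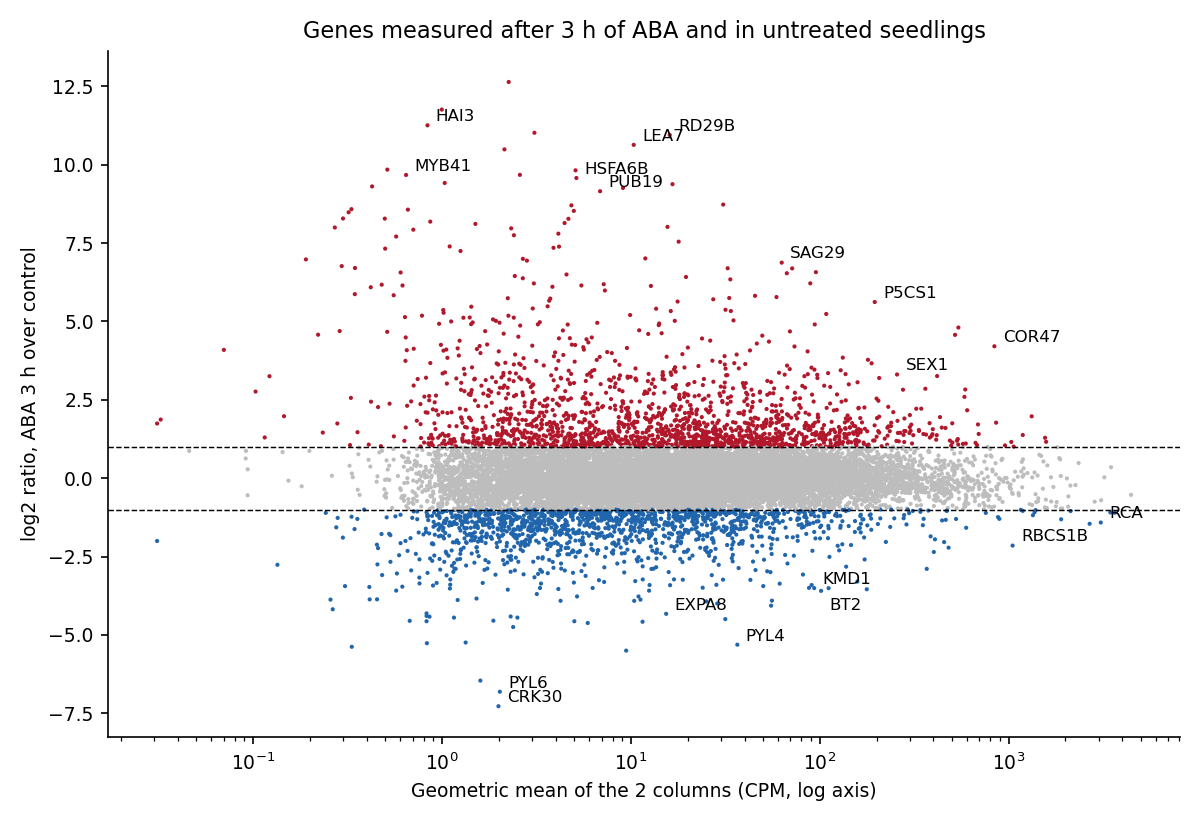
Each point is 1 of the 18872 measured genes. The horizontal axis is the geometric mean of its levels in the control and after ABA 3 h in CPM (log axis), and the vertical axis is the log2 ratio of ABA 3 h over control. Dashed lines mark 2-fold. Red points are the 1721 higher genes and blue points the 1471 lower ones; the red cloud reaches past a log2 ratio of 10 and the blue cloud ends near CRK30 at −7.27.

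The genes with the highest ratios were nearly silent before treatment, as a ranking by ratio to the control favours genes with a low control level. The level filter included the ABA 3 h column, so some of them passed it mainly through their high level there. RD29B (AT5G52300), a stress-induced hydrophilic protein, stood at 0.362 CPM before treatment, 16.0 and 713 at 1 h and 3 h of ABA, and 1.61 and 37.5 at 1 h and 3 h of dehydration. LEA7 (AT1G52690) stood at 0.260 CPM before treatment, 21.5 and 412 at 1 h and 3 h of ABA, and 0.818 and 43.7 at 1 h and 3 h of dehydration. Both were highest after ABA 3 h, and their log2 ratios to the control were 10.95 (10.59 to 11.32) and 10.63 (10.22 to 11.08). Another LEA gene, AT3G17520, had 5 reads in the control column and 180.0 CPM after ABA 3 h, the highest ratio of the ranking at 12.64 (11.41 to 14.26). Of the 15 genes with the highest ratios among those that reached at least 10 CPM, 6 were RD29B or LEA genes: RD29B, LEA7, LEA18 (AT2G35300), LEA4-5 (AT5G06760), AT3G17520 and AT3G15670.

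The remainder of these 15 included regulators and genes of unknown function. HSFA6B (AT3G22830), a heat shock transcription factor, went from 0.186 to 142 CPM and was already at 86.7 CPM after ABA 1 h. TSPO (AT2G47770), a membrane protein that binds porphyrins, went from 0.170 to 153 CPM. The phosphatase HAI3 (AT2G29380) had 3 reads in the control and 41.4 CPM after ABA 3 h, with a log2 ratio of 11.25 (9.71 to 13.53). AT5G50360 and AT3G03341, both annotated as unknown proteins, stood at 58.7 and 140.4 CPM after ABA 3 h, from 2 and 12 control reads. AT4G33467 was the one of these 15 that was higher after dehydration 3 h (150.2 CPM) than after ABA 3 h (73.9 CPM).

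The promoters of several of these genes hold the ABRE, and stretches of 30 bases around 1 such match in each of 8 genes are shown because the share of promoters with this motif differed between classes of genes, as given next. The sequences are from RefSeq assembly TAIR10.1, are written 5′ to 3′ on the strand of the gene, and have in capitals the motif ACGTGGC or ACGTGTC or its reverse complement GCCACGT or GACACGT.
RD29B: aactggctgagACGTGGCaggacgaaacgg
LEA7: cgtgagtcaccACGTGTCtaacatcttccg
LEA18: tcgtagcttgtGACACGTatctacgtatta
LEA4-5: tcttctttcatGACACGTctcactgacgtg
AT3G17520: gtttgtgtaacACGTGTCaagaaccactta
AT5G50360: tcaaacaaaacGCCACGTctctaaccttcg
MYB41: tatttcaaaggACGTGGCatattaggtaca
RAB18: ggaggagcattACGTGTCctgttagctacg

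In the 250 bases before the gene start, RD29B, AT5G50360 and AT4G33467 each held 3 ABRE matches. LEA7, LEA4-5, AT3G17520 and AT3G15670 held 2, and LEA18, MYB41 and RAB18 held 1. No match was found in that window for HAI3, HSFA6B, TSPO, AT2G24945, AT3G03341 or AT5G66780, nor for HAI1, P5CS1, ABF3, EDL3 or RD29A. RD29A held 3 matches to the dehydration-responsive element core CCGAC. RAB18, HAI1, P5CS1, ABF3, EDL3 and RD29A are not among the 15 genes with the highest ratios. None of the 15 genes with the lowest ratios held an ABRE there, but 15 genes are too few to set against the 6.39% of all promoters with one. A missing match says only that these letters are not in this window.

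Over 18817 measured genes with a promoter, the share with an ABRE was highest among the genes at least 4-fold higher, at 21.6% of 597 (exact 95% interval 18.4% to 25.1%). It was 12.9% of 1113 genes 2- to 4-fold higher and 6.82% of 15639 within 2-fold. It was 5.5% of 1127 genes 2- to 4-fold lower and 4.69% of 341 at least 4-fold lower. Over all 27437 protein-coding promoters of the assembly it was 6.39%. The core of the element, ACGTG, which every ABRE match contains, was present in 46.9%, 33.2%, 22.5%, 24.4% and 26.1% of the same 5 classes, in that order, and in 22.9% of all promoters. At least 2 copies of the core were found in 21.6% of promoters of genes at least 4-fold higher and in 4.97% of those within 2-fold. Read the other way, 273 of the 1418 measured genes with an ABRE were at least 2-fold higher (19.3%), against 8.26% of the genes without one.

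Other motifs were searched in the same windows on both strands. The G-box CACGTG, which overlaps many ABRE matches, was in 20.4% of promoters at least 4-fold higher and in 6.86% within 2-fold, beside 6.49% of all. The core CCGAC of the dehydration-responsive element was in 18.8% of the first class, 13.1% within 2-fold and 7.92% of the genes at least 4-fold lower, beside 12% of all. The evening element AAATATC, a sequence of clock-controlled genes, was in 18.9% of the first class and 11.9% within 2-fold, beside 12.2% of all. The W-box (TTGACC or TTGACT), bound by WRKY factors, varied less, with 30.2%, 28.3% and 34.9% in the first, middle and last class and 28.4% of all. Site II (TGGGCC or TGGGCT) and the telo-box (AAACCCT), sequences common in promoters of ribosomal protein and other growth genes, were most frequent within 2-fold, at 25.0% and 6.72%. Site II was in 10.4% of promoters of genes 4-fold or more above the control and 7.04% of those 4-fold or more below it, and the telo-box in 4.02% and 3.23%, beside 19.2% and 7.33% of all promoters.

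**Figure D2:**
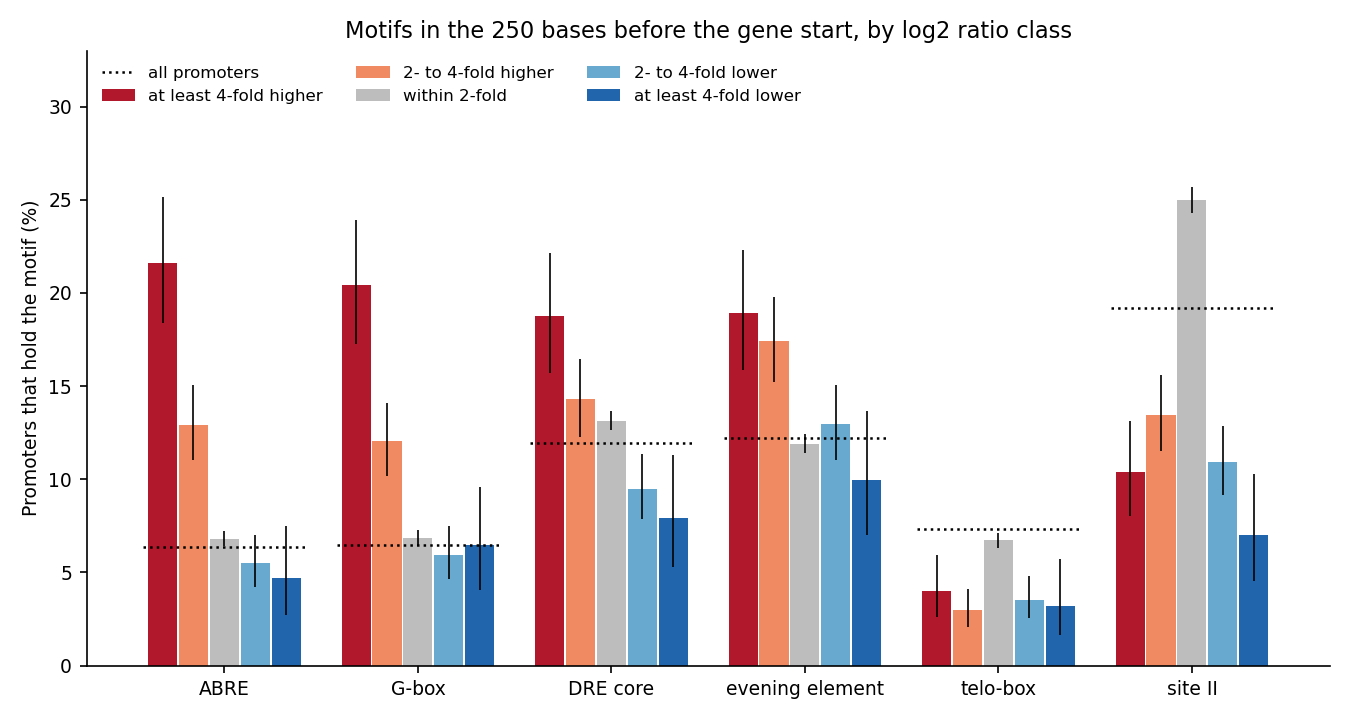
The bars give the percentage of promoters (250 bases before the gene start) that hold each motif, for 5 classes of genes by their ratio of ABA 3 h to control; whiskers are exact 95% binomial intervals and dotted lines give the share over all promoters. The ABRE and G-box bars are tallest, at 21.6% and 20.4%, in the genes at least 4-fold higher, while site II peaks at 25.0% in the genes within 2-fold.

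The ABA pathway itself was described from receptors to targets. Of 8 measured receptors 6 were at least 2-fold lower and 0 higher, with a median log2 ratio of −2.31. Only 9 receptors were typed for this list, which leaves out members of the family such as PYL3. The receptor PYL6 (AT2G40330) stood at 21.5 CPM before treatment, 0.276 and 0.191 at 1 h and 3 h of ABA, and 3.51 and 2.1 at 1 h and 3 h of dehydration. It was lowest in both ABA columns, and PYL4 (AT2G38310) and PYL5 (AT5G05440) were also among the 15 genes with the lowest ratios, at −5.31 (−5.40 to −5.23) and −4.50 (−4.58 to −4.42). PYL7 (AT4G01026) and PYL9 (AT1G01360) lay within 2-fold at −0.22 and −0.29, although both were well above the control after dehydration 3 h, PYL7 at 167 against 16.2 CPM. All 8 measured clade A phosphatases, the co-receptors that the hormone holds in check, were at least 2-fold higher. They ranged from HAB2 (AT1G17550), 4.37-fold higher, to HAI3 above. HAI1 (AT5G59220) stood at 3.20 CPM before treatment, 167 and 331 at 1 h and 3 h of ABA, and 29.2 and 102 at 1 h and 3 h of dehydration.

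The kinases next in line were less uniform. Of 10 SnRK2 genes 3 were higher and 1 lower, with a median of 0.32. SNRK2.7 (AT4G40010) went from 2.51 to 60.8 CPM, a log2 ratio of 4.6 (4.46 to 4.74). OST1 (AT4G33950), the kinase that closes stomata, was 2.19-fold higher, while SNRK2.8 (AT1G78290) was 2.74-fold lower and SNRK2.2 and SNRK2.3 lay within 2-fold at 0.53 and −0.25. In a mitogen-activated cascade that is known to act after these kinases, MAPKKK18 (AT1G05100) went from 0.277 to 61.6 CPM and MAPKKK17 (AT2G32510) from 0.989 to 15.9 CPM. The third member higher, of 6 measured, was the kinase MPK7 (AT2G18170) at 2.25, and none was lower.

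In the list of bZIP factors of the ABF and ABI5 group, 5 of 8 were higher and 0 lower, with a median of 2.7. The list also holds the G-box binding factor GBF3, which is among the 5 higher. ABI5 (AT2G36270), known from germinating seeds, stood at 0.480 CPM before treatment, 6.5 and 14.0 at 1 h and 3 h of ABA, and 4.38 and 13.4 at 1 h and 3 h of dehydration. The dehydration 3 h and ABA 3 h columns were close for it. ABF3 (AT4G34000) went from 32.1 to 294 CPM and GBF3 (AT2G46270) from 14.3 to 109.7 CPM. AREB3 (AT3G56850) and EEL (AT2G41070), relatives best known in seeds, lay within 2-fold at −0.16 and −0.70. The AFP proteins, which bind ABI5 and repress its output, were higher too: AFP3 (AT3G29575) and AFP1 (AT1G69260) had log2 ratios of 5.37 (5.27 to 5.47) and 5.33 (5.24 to 5.43). The ubiquitin ligase KEG (AT5G13530), which targets ABI5 for degradation, lay within 2-fold at 0.23, so 4 of 5 members of that list were higher.

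Genes that make, inactivate and move the hormone were also partly higher. NCED3 (AT3G14440), which cleaves carotenoids in the committed step of ABA synthesis, stood at 2.58 CPM before treatment, 11.9 and 22.8 at 1 h and 3 h of ABA, and 49.8 and 189 at 1 h and 3 h of dehydration. Its highest level was thus after dehydration, and its log2 ratio after ABA 3 h was 3.14 (3.00 to 3.29). AAO3 (AT2G27150), the last enzyme of synthesis, was 2.96-fold higher; these made 2 of 5 measured, or 5 members with no filter on level. CYP707A1 (AT4G19230), a hydroxylase that inactivates ABA, went from 3.78 to 197 CPM and was lower in both dehydration columns (24.2 and 28 CPM) than after ABA 3 h. CYP707A4 (AT3G19270) and CYP707A2 (AT2G29090) were also higher, at 3.29 and 3.07, whereas CYP707A3 (AT5G45340) lay within 2-fold at 0.09 and UGT71C5 (AT1G07240), which conjugates ABA to glucose, was 2.23-fold lower. Of 7 transporters linked to ABA, 3 were higher, with ABCG22 (AT5G06530) 5.68-fold and the exporter ABCG25 (AT1G71960) 2.97-fold higher.

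Ubiquitin ligases of ABA and drought signalling were higher in 5 of 17 and lower in 2. PUB19 (AT1G60190), a ligase known to limit drought responses, stood at 0.288 CPM before treatment, 81.5 and 164 at 1 h and 3 h of ABA, and 50.3 and 252 at 1 h and 3 h of dehydration. The F-box gene EDL3 (AT3G63060) went from 0.237 to 30.3 CPM and AIRP1 (AT4G23450), a RING-type ligase, from 1.94 to 21.2 CPM. PUB23 (AT2G35930) and PUB22 (AT3G52450) were the lower pair, at −1.32 and −1.04. Of 14 kinases and sensors of the CIPK and CBL calcium network, 5 were higher and 2 lower. CIPK6 (AT4G30960) was abundant throughout and went from 285 to 1279 CPM, whereas CIPK1 (AT3G17510) was 3.86-fold lower.

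In the list of LEA proteins, dehydrins and related protective proteins, 17 of 18 measured genes were higher, with a median log2 ratio of 6.64. This list was typed with earlier results of these data known, and it leaves out other LEA genes such as AT3G17520. The number higher therefore does not describe LEA genes as a whole. RAB18 (AT5G66400), a dehydrin, stood at 3.73 CPM before treatment, 18.3 and 303 at 1 h and 3 h of ABA, and 2.65 and 34.1 at 1 h and 3 h of dehydration. The ABA 3 h column was far above all others for it. COR15A (AT2G42540), a chloroplast LEA protein, stood at 1.5 CPM before treatment, 48.2 and 635 at 1 h and 3 h of ABA, and 76.2 and 961 at 1 h and 3 h of dehydration, so there the dehydration 3 h column was higher. The exception in the list was SAG21 (AT4G02380), at −0.31. The seed gene EM1 (AT3G51810) had 1 read in the control and 4.32 CPM after ABA 3 h, which gives a counting interval of 7.10 to 14.89 on the log2 scale. RD29A (AT5G52310) could not be given a ratio, because its count after ABA 3 h is listed as 0 beside a fragment value of 3959.86 FPKM (fragments per kilobase of transcript, scaled to library size), against 7.11 FPKM in the control.

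The largest gain in CPM of any gene with a ratio was that of a dehydrin. COR47 (AT1G20440) stood at 196 CPM before treatment, 898 and 3614 at 1 h and 3 h of ABA, and 924 and 2511 at 1 h and 3 h of dehydration. ERD10 (AT1G20450) and the membrane protein COR413-PM1 (AT2G15970) followed, at 2866 and 2538 CPM after ABA 3 h from 103 and 107 CPM. Per length, COR413-PM1 reached 3873 FPKM, COR47 3158 FPKM and ERD10 1843 FPKM. ADC2 (AT4G34710), an arginine decarboxylase that makes the polyamine precursor agmatine, went from 669 to 2625 CPM. P5CS1 (AT2G39800), the rate-limiting enzyme of proline synthesis, went from 27.9 to 1370.4 CPM. The cell wall genes EXT4 (AT1G76930) and EXT3 (AT1G21310) were also among the 12 largest gains although EXT3 stayed just within 2-fold at 0.99, and extensin genes share repeats, so reads may have been split among them. RD22 (AT5G25610), a BURP-domain protein used as a drought marker, went from 135 to 1293 CPM.

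**Figure D3:**
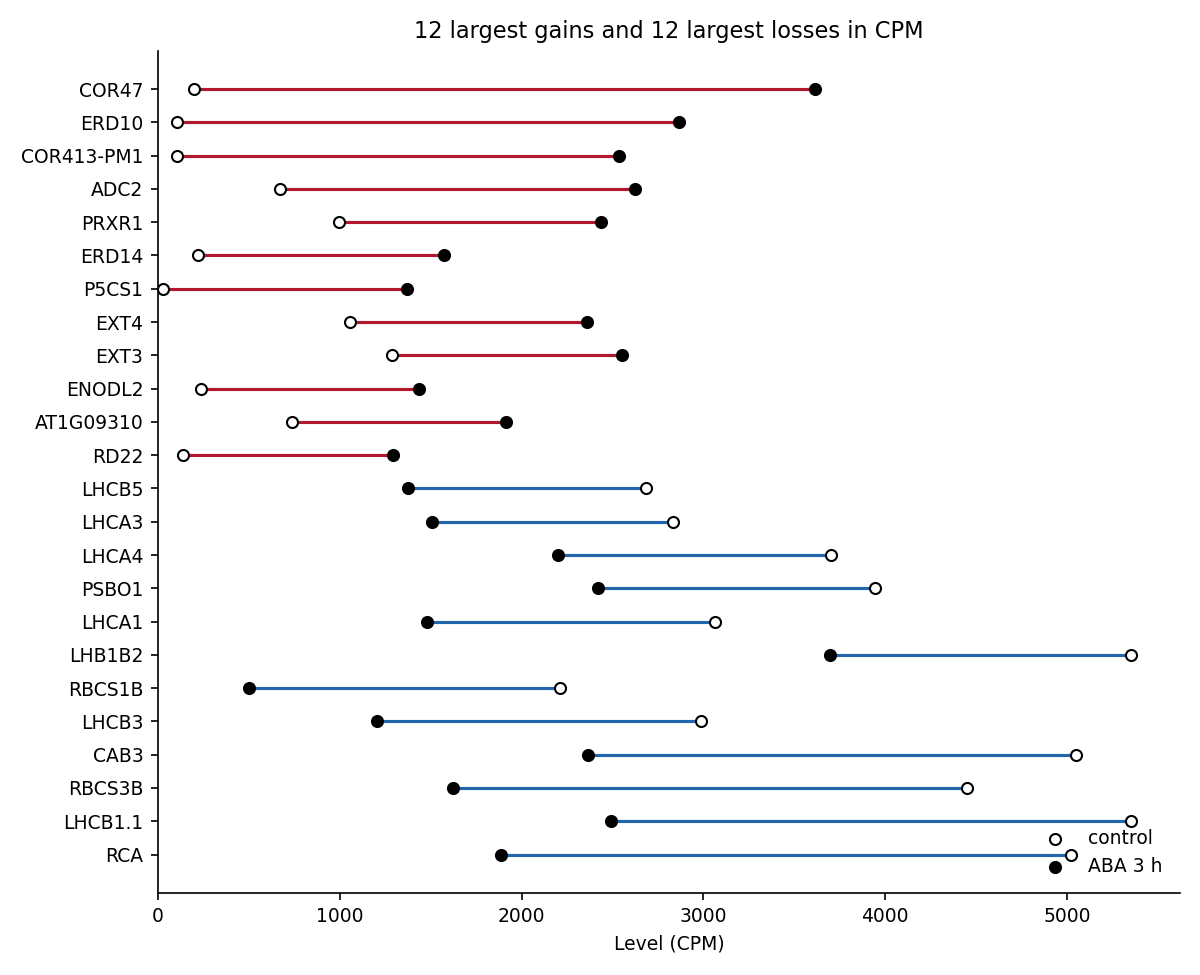
Levels in CPM (linear axis) of the 12 genes with the largest gain and the 12 with the largest loss from control (open circles) to ABA 3 h (filled circles). COR47 shows the longest red line, from 196 to 3614 CPM, and the losses are all genes of photosynthesis, led by RCA, from 5024 to 1884 CPM.

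In the NAC list of transcription factors 5 of 11 were higher and 1 lower. ANAC019 (AT1G52890) went from 4.53 to 243 CPM, RD26 (AT4G27410) from 38.0 to 293 CPM and NAC032 (AT1G77450) from 13.7 to 112 CPM, while ANAC055 (AT3G15500), a close relative of ANAC019, lay within 2-fold at −0.09. Among class I HD-Zip factors 4 of 11 were higher and 2 lower. HB7 (AT2G46680) and HB12 (AT3G61890), known ABA-responsive factors that restrain growth, went from 17.2 to 515 and from 11.4 to 143 CPM. HB23 (AT1G26960) was 2.22-fold lower.

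Of 14 stress-linked R2R3 MYB factors, 7 were higher and 3 lower. MYB41 (AT4G28110), an activator of suberin synthesis when overexpressed, stood at 0.0226 CPM before treatment, 1.80 and 18.4 at 1 h and 3 h of ABA, and 0.195 and 0.959 at 1 h and 3 h of dehydration. MYB102 (AT4G21440) and MYB74 (AT4G05100) of the same subgroup had log2 ratios of 6.94 (6.52 to 7.39) and 5.20 (5.03 to 5.38). MYB60 (AT1G08810), a guard cell factor that promotes stomatal opening, was 4.32-fold lower. Heat shock factors had 6 of 19 higher and 1 lower. HSFA6A (AT5G43840) stood at 5.28 (4.75 to 5.86), and HSFA7A (AT3G51910) was 8.11-fold lower. Of 9 genes typed for the DREB2 list only 4 matched by name and 3 were measured, so it covers a part of the group. All 3 were higher, with DREB2A (AT5G05410) at 23.1 CPM after ABA 3 h against 2.66 in the control and 132 after dehydration 3 h. Of 10 NF-YA subunits 3 were higher, or 1 among those that averaged 5 CPM or more, with NF-YA5 (AT1G54160) at 3.52.

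WRKY factors, many of which act in defence, had 6 of 53 higher and 13 lower. On the log2(FPKM + 1) scale the numbers were 3 and 8, and among genes averaging 5 CPM or more the lower number was 8. WRKY22 (AT4G01250) went from 41.0 to 3.85 CPM and WRKY72 (AT5G15130) from 11 to 1.66 CPM. Cysteine-rich receptor-like kinases, surface kinases also linked to defence, were lower in 8 of 27 and higher in 3. CRK30 (AT4G11460) had the lowest ratio of the ranking and stood at 24.8 CPM before treatment, 3.1 and 0.160 at 1 h and 3 h of ABA, and 10.6 and 3.46 at 1 h and 3 h of dehydration. With genes averaging 5 CPM or more, 4 were lower and 1 higher; the log2(FPKM + 1) scale also gave 4 lower, and without a filter 9 were higher.

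Carbohydrate genes are given from starch to soluble sugars. Of 15 measured genes of starch breakdown, 12 were at least 2-fold higher and 1 lower, with a median of 1.46. The higher genes DPE1 (AT5G64860), SEX4 (AT3G52180) and LSF1 (AT3G01510) were only just past 2-fold, at 1.02, 1.02 and 1.05. The number higher therefore depends on the scaling, and with upper-quartile scaling the median was 1.36. SEX1 (AT1G10760), the glucan, water dikinase that opens starch granules to attack, stood at 81.6 CPM before treatment, 251 and 807 at 1 h and 3 h of ABA, and 171 and 583 at 1 h and 3 h of dehydration. The debranching enzyme ISA3 (AT4G09020) and the amylase AMY1 (AT4G25000) had log2 ratios of 2.71 (2.66 to 2.76) and 3.37 (3.1 to 3.64). The maltose exporter MEX1 (AT5G17520) lay at the limit, at 0.99, and BAM9 (AT5G18670), a beta-amylase family member, was 2.67-fold lower. BAM3 (AT4G17090), a main leaf beta-amylase, lay within 2-fold after ABA at −0.33, although it stood at 577 CPM after dehydration 3 h against 81.6 in the control.

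On the sucrose side 4 of 10 sucrose synthases and sucrose phosphate synthases were higher and 0 lower. SPS2F (AT5G11110), a sucrose phosphate synthase, stood at 13.7 CPM before treatment, 197 and 352 at 1 h and 3 h of ABA, and 27.3 and 65.4 at 1 h and 3 h of dehydration. SUS3 (AT4G02280) and SUS1 (AT5G20830), sucrose synthases that split sucrose for use in sinks, had log2 ratios of 4.45 (4.36 to 4.55) and 3.53 (3.48 to 3.57). Sugar transporters went both ways, with 7 of 16 higher and 5 lower, and their median of 0.57 turned to −0.18 among genes that averaged 5 CPM or more. SAG29 (AT5G13170), the sucrose transporter SWEET15 named for its link with senescence, stood at 5.81 CPM before treatment, 9.89 and 681 at 1 h and 3 h of ABA, and 2.52 and 13.6 at 1 h and 3 h of dehydration. The ABA 3 h column was far above the others for it. SWEET4 (AT3G28007) went from 0.294 to 24.4 CPM and the hexose importer STP13 (AT5G26340) from 26.9 to 256 CPM. The transporters ERD6 (AT1G08930) and SWEET16 (AT3G16690) were 4.94-fold and 3.27-fold lower.

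Raffinose sugars are compatible solutes, and 5 of 8 genes of their metabolism were higher and 2 lower. Their summed level did not rise, at 1165 CPM in the control and 1089 CPM after ABA 3 h. GOLS2 (AT1G56600), galactinol synthase, stood at 0.842 CPM before treatment, 29.4 and 61.3 at 1 h and 3 h of ABA, and 11.3 and 115 at 1 h and 3 h of dehydration. SIP2 (AT3G57520), a galactosidase specific for raffinose, went from 104 to 733 CPM, while DIN10 (AT5G20250) was 7.43-fold lower. The other lower member was GOLS1 (AT2G47180), also a galactinol synthase, at −1.47. In proline metabolism 3 of 7 were higher and 1 lower: P5CS2 (AT3G55610) was 2.58-fold higher, and PRODH1 (AT3G30775), which degrades proline, was 2.69-fold lower. Breakdown of branched-chain amino acids and lysine had 3 of 12 higher and 0 lower, with a median of −0.07. LKR (AT4G33150), the entry enzyme of lysine degradation, stood at 50.5 CPM before treatment, 56.5 and 402 at 1 h and 3 h of ABA, and 59.8 and 43.8 at 1 h and 3 h of dehydration, and only its ABA 3 h column departed from the others.

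**Figure D4:**
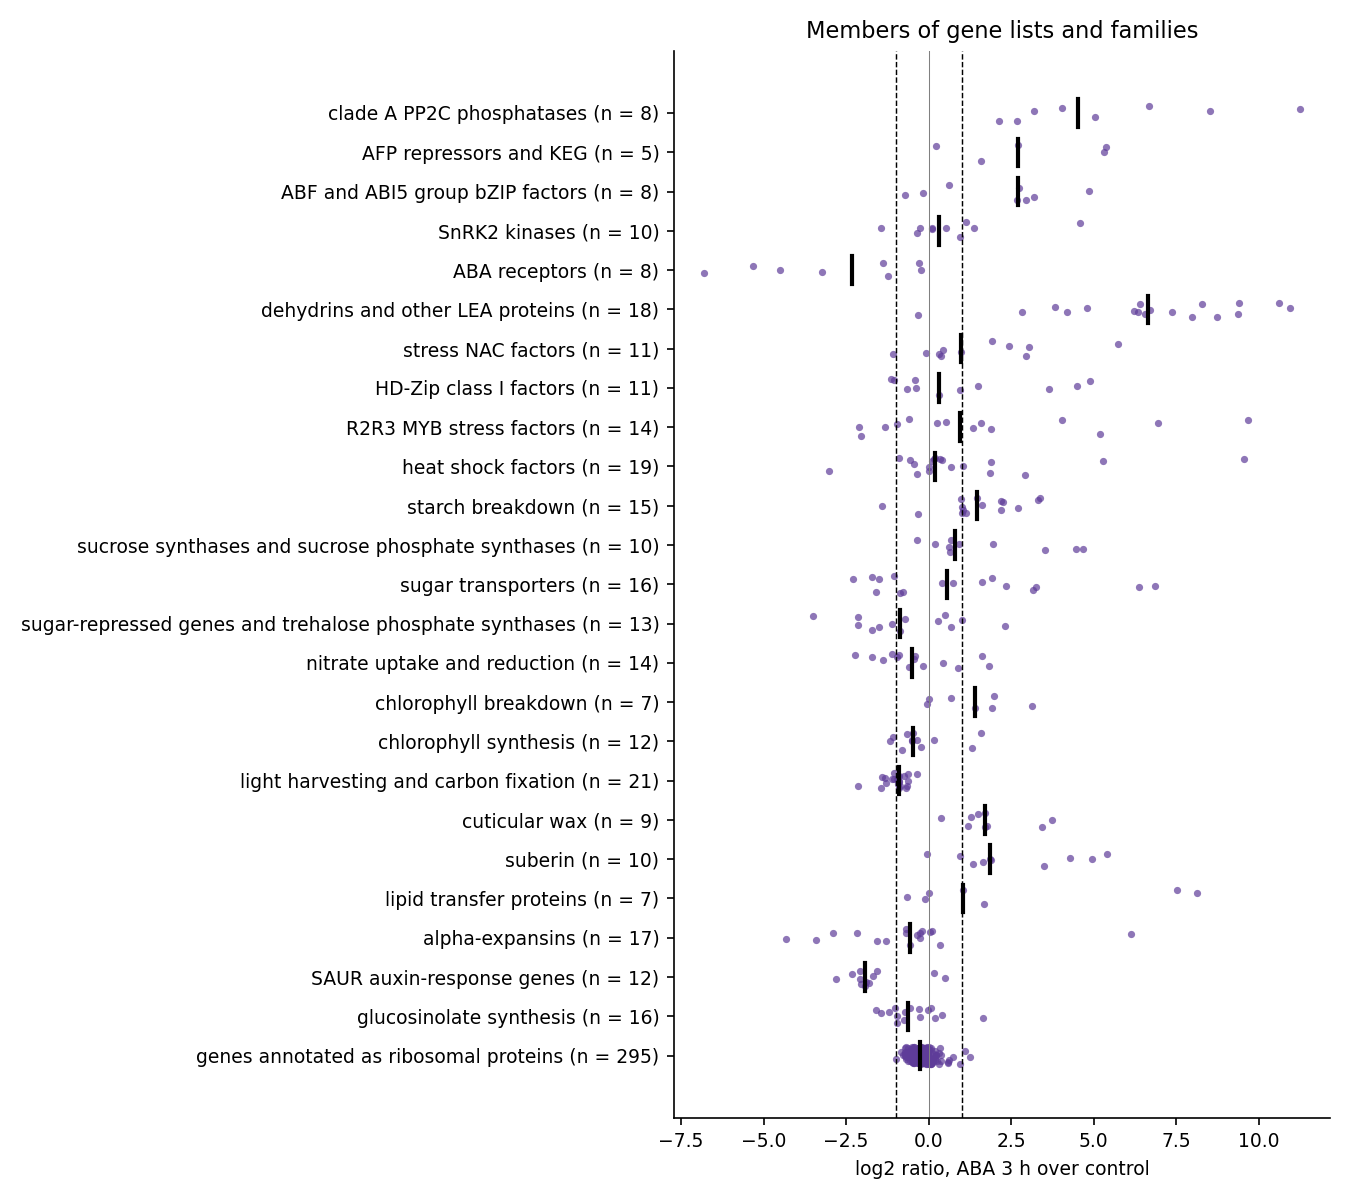
Each point is 1 measured gene of a list or family and black bars are medians; the horizontal axis is the log2 ratio of ABA 3 h over control, with dashed lines at 2-fold. The phosphatases and LEA proteins lie to the right, the receptors and SAUR genes to the left, and the 295 genes annotated as ribosomal proteins form a narrow cloud with a median of −0.25.

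Of 13 genes repressed by sugar or coding for trehalose phosphate synthases, 6 were lower and 2 higher, the latter number being 1 with total-count or upper-quartile scaling and on both FPKM scales. KMD1 (AT1G80440), an F-box protein that targets response regulators of cytokinin signalling, stood at 315 CPM before treatment, 10.8 and 27.7 at 1 h and 3 h of ABA, and 25.2 and 44.6 at 1 h and 3 h of dehydration. KMD3 (AT2G44130) and TPS8 (AT1G70290) were 4.39-fold and 4.39-fold lower, and TPS5 (AT4G17770) was 5.03-fold higher. Of the 5 BT scaffold proteins, which link nutrient, sugar and hormone signals, 3 were lower and 1 higher. BT2 (AT3G48360) stood at 354 CPM before treatment, 13.9 and 29.2 at 1 h and 3 h of ABA, and 61.9 and 86.2 at 1 h and 3 h of dehydration. BT5 (AT4G37610) was 15.3-fold lower and BT4 (AT5G67480) 3.07-fold higher.

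Nitrate uptake and reduction had 2 of 14 higher and 4 lower. LBD38 (AT3G49940), a repressor of nitrogen-responsive genes, went from 119.9 to 25.3 CPM, and UPM1 (AT5G40850), which makes the sirohaem cofactor of nitrite reductase, from 278 to 84.7 CPM. NPF7.2 (AT4G21680), a carrier that unloads nitrate from root xylem, was 3.57-fold higher. The reductase gene NIA2 (AT1G37130) lay just within 2-fold at −0.95.

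Of 21 genes of light harvesting and carbon fixation 8 were lower and 0 higher, with a median of −0.91, and 13 were lower with upper-quartile scaling. The largest loss in CPM was that of RCA (AT2G39730), rubisco activase, which stood at 5024 CPM before treatment, 3679 and 1884 at 1 h and 3 h of ABA, and 3252 and 1968 at 1 h and 3 h of dehydration. RBCS1B (AT5G38430), a small subunit of rubisco, went from 2212 to 498 CPM, and LHCB3 (AT5G54270) from 2989.7 to 1204 CPM. The RBCS and LHCB1 genes have near-identical copies whose reads the counting may have split, so values of single copies are uncertain. Markers of leaf mesophyll gave 4 of 8 lower, and their summed level was 13653 CPM in the control and 7438 CPM after ABA 3 h; carbonic anhydrase CA1 (AT3G01500) was 4.65-fold lower and the glycine decarboxylase subunit GLDP1 (AT4G33010) lay at 0.08. The part of cell composition in this result was not tested.

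Pigment genes are given by step. Of 7 genes of chlorophyll breakdown 4 were higher and 0 lower. NYC1 (AT4G13250), chlorophyll b reductase, stood at 84.4 CPM before treatment, 143 and 318 at 1 h and 3 h of ABA, and 124 and 142 at 1 h and 3 h of dehydration. NYE1 (AT4G22920) and NYE2 (AT4G11910), the magnesium dechelatases that start breakdown, were 3.97-fold and 8.71-fold higher. Of 12 genes of chlorophyll synthesis 2 were higher and 2 lower, with a median of −0.49. CHLM (AT4G25080) and GUN4 (AT3G59400) were 2.27-fold and 2.12-fold lower, and PORB (AT4G27440), a light-dependent reductase, went from 266 to 807 CPM. Of 10 genes for flavonoids and anthocyanins 4 were higher and 1 lower, with the MYB activator PAP1 (AT1G56650) going from 0.339 to 11 CPM.

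Surface lipid genes were mostly higher. Of 9 wax genes 8 were higher and 0 lower, with a median of 1.71. CER1 (AT1G02205), which makes the alkanes of leaf wax, stood at 39.2 CPM before treatment, 50.6 and 426 at 1 h and 3 h of ABA, and 29.4 and 216 at 1 h and 3 h of dehydration. WSD1 (AT5G37300), a wax ester synthase, and KCS1 (AT1G01120), a fatty acid elongase, were 13.3-fold and 3.38-fold higher, and CER4 (AT4G33790) lay within 2-fold at 0.37. Of 10 suberin genes 8 were higher and 0 lower, with a median of 1.87; among genes averaging 5 CPM or more the number was 4. ABCG6 (AT5G13580), a suberin lipid exporter, stood at 2.09 CPM before treatment, 6.18 and 88.6 at 1 h and 3 h of ABA, and 1.58 and 2.14 at 1 h and 3 h of dehydration. GPAT5 (AT3G11430), an acyltransferase, stood at 1.19 CPM before treatment, 1.61 and 37.0 at 1 h and 3 h of ABA, and 0.997 and 1.01 at 1 h and 3 h of dehydration. Both departed from the control after ABA 3 h and were within 2-fold of it in both dehydration columns. ASFT (AT5G41040), which adds ferulate to suberin, went from 10.5 to 206 CPM, and CYP86A1 (AT5G58860), a fatty acid hydroxylase of roots, lay at −0.06.

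Suberin is made mainly in roots, so root markers are given beside these genes; their part in the result was not tested. Of 10 measured root markers 0 were higher and 3 lower, with ratios from −1.42 to 0.76, and their summed level was 170 CPM in the control and 108 CPM after ABA 3 h. CASP1 (AT2G36100), a protein of the endodermal barrier, was 2.1-fold lower. Both root and leaf markers were present in both columns, and the labelled tissue is seedlings. Of 7 measured markers of the guard cell lineage 0 were higher and 0 lower, with a summed level of 55.4 and 44.6 CPM. The 7 markers of seed storage proteins and oil bodies summed to 1.89 and 3.23 CPM, and 1 of them reached the level to be measured; the albumin gene AT2S2 (AT4G27150) had 0 reads in the control.

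**Figure D5:**
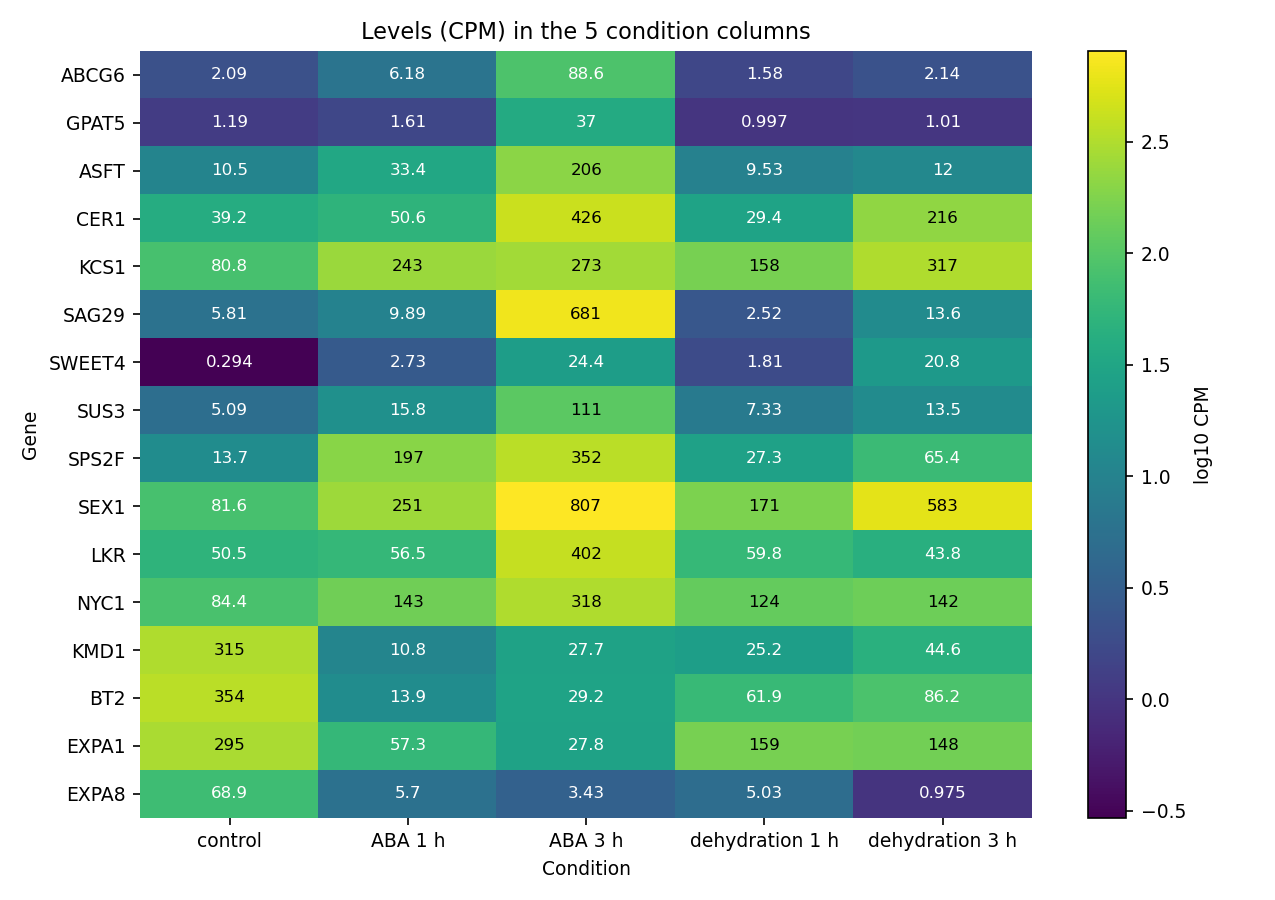
Levels in CPM of 16 genes named in the text in the 5 condition columns, with colour on a log10 scale. The suberin genes ABCG6 and GPAT5, the transporter SAG29 and LKR stand out in the ABA 3 h column, whereas KMD1, BT2 and EXPA1 are brightest in the control.

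Lipid transfer proteins had 4 of 7 higher and 0 lower. LTP3 (AT5G59320) stood at 1.31 CPM before treatment, 7.07 and 245 at 1 h and 3 h of ABA, and 1.36 and 53.2 at 1 h and 3 h of dehydration, and LTP4 (AT5G59310) went from 0.266 to 74.8 CPM; these neighbours are close relatives, so reads may have been split between them. Of 8 channels of guard cells and of potassium transport, 2 were higher, or 1 with upper-quartile scaling, and 1 was lower. GORK (AT5G37500), the outward potassium channel, was 7.08-fold higher and KAT2 (AT4G18290), an inward one, 2.32-fold lower.

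Several groups of growth genes had more lower than higher members. Of 12 small auxin-response (SAUR) genes 10 were lower and 0 higher, with a median of −1.91. All 10 had a mean CPM under 5, so at that limit the number lower was 0 and the median of the members left was 0.32, and several are near-identical neighbours. SAUR9 (AT4G36110) was 6.94-fold lower, from 2.97 to 0.428 CPM. Of 23 Aux/IAA repressors 5 were lower and 1 higher, the latter number being 0 among genes averaging 5 CPM or more, with IAA1 (AT4G14560) 2.63-fold lower. Alpha-expansins, which loosen cell walls, had 6 of 17 lower and 1 higher. EXPA8 (AT2G40610) stood at 68.9 CPM before treatment, 5.70 and 3.43 at 1 h and 3 h of ABA, and 5.03 and 0.975 at 1 h and 3 h of dehydration. EXPA1 (AT1G69530) stood at 295 CPM before treatment, 57.3 and 27.8 at 1 h and 3 h of ABA, and 159 and 148 at 1 h and 3 h of dehydration. The member that went the other way was EXPA16 (AT3G55500), from 1.53 to 107 CPM. Xyloglucan endotransglucosylases had 3 of 28 higher and 3 lower, with XTH10 (AT2G14620) at 1.72 and TCH4 (AT5G57560) at −1.53. Of 24 arabinogalactan proteins 5 were higher and 2 lower, with AGP2 (AT2G22470) going from 43.4 to 433 CPM.

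Other growth hormones gave smaller groups. Among 4 GASA peptides, which respond to gibberellin, 2 were lower, or 1 among genes averaging 5 CPM or more, and GASA6 (AT1G74670) went from 295 to 26.1 CPM. Of 9 genes of gibberellin synthesis and inactivation 2 were higher and 0 lower. They were GA2OX6 (AT1G02400), which inactivates gibberellin, at 4.75-fold, and the synthesis gene KS (AT1G79460), with a log2 ratio of 1.93. GA2OX1, GA2OX2 and GA2OX8 lay within 2-fold at −0.26, 0.12 and 0.75. Of 7 brassinosteroid genes 2 were lower and 0 higher, with BAS1 (AT2G26710), an inactivating P450, 3.49-fold and the synthesis gene CPD (AT5G05690) 2.49-fold lower. Of 13 genes of cytokinin response and turnover 4 were lower and 1 higher. CKX4 (AT4G29740), a cytokinin oxidase, was 5.03-fold lower, and the member that was higher was CKX5 (AT1G75450), at 2.41. Outside that list, the P450 CYP735A2 (AT1G67110), which makes trans-zeatin, went from 8.21 to 0.217 CPM. Of 7 cell cycle inhibitors 2 were lower and 0 higher, with KRP4 (AT2G32710) and KRP6 (AT3G19150) at −1.19 and −1.19.

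Large enzyme families were mixed. Of 144 cytochrome P450s 24 were higher and 31 lower, and CYP76C2 (AT2G45570) and CYP94B3 (AT3G48520), which inactivates jasmonate, were 32.4-fold and 26.3-fold higher. With no filter these numbers were 37 and 47, and the lower number was 19 among genes averaging 5 CPM or more, where the family median turned from −0.10 to 0.02. Among 50 UDP-glycosyltransferases 13 were higher and 4 lower; UGT84A1 (AT4G15480) was 9.26-fold higher, and UGT72E1 (AT3G50740), a monolignol glycosyltransferase, 10.6-fold lower. Glutathione transferases had 6 of 43 on each side, with 2 lower among genes averaging 5 CPM or more. GSTU3 (AT2G29470) went from 0.723 to 9.09 CPM and GSTF3 (AT2G02930) from 5.76 to 0.402 CPM. Beta-glucosidases were higher in 9 of 33 and lower in 1, and BGLU24 (AT5G28510) stood at 2.51 CPM before treatment, 15.9 and 125 at 1 h and 3 h of ABA, and 3.38 and 3.77 at 1 h and 3 h of dehydration.

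Glucosinolate synthesis, which makes defence compounds of the cabbage family, had 4 of 16 lower and 1 higher, with a median of −0.64. CYP79B3 (AT2G22330) and BCAT4 (AT3G19710) were 3.00-fold and 2.72-fold lower. Of 9 enzymes of reactive oxygen metabolism 1 was higher and 2 lower: the oxidase RBOHF (AT1G64060), which acts in stomatal closure, was 2.48-fold higher, while RBOHD (AT5G47910) and the catalase CAT2 (AT4G35090) were 3.29-fold and 2.36-fold lower. Genes annotated as ribosomal proteins were nearly all within 2-fold, with 2 of 295 higher and 0 lower. Among 38 core and linker histones 4 were higher and 0 lower, led by HIS1-3 (AT2G18050), the drought-linked H1 variant, from 2.96 to 12.6 CPM.

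Further genes with the lowest ratios were of unknown function or of various kinds. AT4G38825, annotated as SAUR-like but not among the SAUR genes above, which were chosen by symbol, went from 10.7 to 0.500 CPM. AT1G33055, annotated as an unknown protein, stood at 15 CPM before treatment, 0.672 and 0.170 at 1 h and 3 h of ABA, and 2.79 and 1.38 at 1 h and 3 h of dehydration. GAT1_2.1 (AT1G15040), a glutamine amidotransferase-like protein, went from 29.3 to 1.19 CPM, while its dehydration columns held 43.8 and 34.6 CPM. OXS3 (AT5G56550), linked to oxidative stress tolerance, was 23.9-fold lower. RAV2 (AT1G68840), a B3-domain repressor, stood at 226 CPM before treatment, 16.9 and 13.5 at 1 h and 3 h of ABA, and 13.1 and 12.2 at 1 h and 3 h of dehydration, low in every treated column. AT4G21870, a small heat shock protein relative, went from 63.6 to 1.40 CPM.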

How the data were processed

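RNA was sequenced from 15 samples, 3 per condition, as strand-specific single reads of polyadenylated RNA, per the labels' protocols. The build TAIR10 and the tools Cufflinks 2.1.1, TopHat2 2.0.8, DESeq2 and Cuffdiff are named in the submitters' processing notes, without roles or order. The program that counted the reads and its strand setting are among the steps not given in the sources used here. Deposited by the authors were unnormalized read counts per gene and, as a second table, FPKM values per gene, each with 1 combined column per condition per the file headers.

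From the counts, CPM was computed with trimmed-mean (TMM) factors (edgeR 4.0.16, R 4.3.3) over all 5 columns. Genes with a mean of at least 1 CPM were kept, a count under 3 reads was set to 3 for ratios, and genes were counted from 2-fold on. Exact 95% intervals (SciPy 1.17.1) cover counting error. The count of 0 for RD29A was treated as missing. The computation was tested on simulated data with counting error only, so variation between replicates was not part of the test. There the intervals held the drawn value for 94.9% of unchanged genes. For the small sets of genes at other drawn folds the share was 85% to 100%.

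Members were described in 45 lists typed from general knowledge (493 of 500 entries matched, 9 of them not among the rows) and in 14 families chosen by symbol or annotation; members and lists were chosen with earlier results of these data known. Named were the 15 highest and 15 lowest ratios among genes reaching 10 CPM in either column, the 12 largest gains and losses in CPM, and in each list up to 3 members in its more frequent direction and 2 in the other, besides 9 fixed genes and members within 2-fold. Promoters were read by locus code from RefSeq TAIR10.1. Alternatives were other scalings, other level filters and log2(FPKM + 1) or log2(FPKM + 0.1) ratios.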

Additional observations from a re-analysis of the deposited data

Results flagged for a closer look

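RD29A (AT5G52310), a widely used marker of ABA and drought responses, carried a signal after ABA 3 h outside the count table used for all ratios. Its FPKM value was 3959.86 after ABA 3 h against 7.11 in the control, while its count after ABA 3 h is listed as 0. Its counts in the other columns were 3220 in the control, 271676 at 1 h of ABA, and 234815 and 918953 at 1 h and 3 h of dehydration. Of all cells of the count table, this was the 1 cell where the count was 0 and the FPKM reached 1. A ratio of its counts after ABA 3 h was therefore not given.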

How the results depend on the processing

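No named gene counted as higher turned lower, or the reverse, under any alternative run. Besides the medians of SAUR genes, P450s and sugar transporters given above, 4 group medians changed sign: without a filter that of the cysteine-rich kinases went from −0.53 to 0.0038, that of glutathione transferases from 0.11 to −0.03 and that of reactive oxygen enzymes from −0.11 to 0.0027, and with upper-quartile scaling that of UDP-glycosyltransferases from 0.09 to −0.0078. With the filter at 5 CPM, further small counts moved: xyloglucan endotransglucosylases had 1 higher, arabinogalactan proteins and brassinosteroid genes 1 lower, heat shock factors and flavonoid genes 0 lower, and cytokinin and glucosinolate genes 0 higher. Without a filter 7 histones and 6 ribosomal proteins were higher. The number of genes at least 2-fold lower, 1471, was 2227 with no filter on level and 915 among genes averaging 5 CPM or more. The number higher, 1721, stayed within 1.5 times of that value under every alternative run, from 1298 with that stricter filter to 2296 with no filter. Higher genes were 53.9% of those 2-fold apart, 46.4% with upper-quartile scaling and 58.7% with the stricter filter. On the log2(FPKM + 1) scale, which understates the change of low genes, 1357 were higher and 1087 lower. The share of promoters with an ABRE among genes at least 4-fold higher was 25.3% when 50 bases after the start were added. Upper-quartile scaling moved the median of all genes to −0.09. No paired analysis was possible because each condition has 1 combined column; the replicate block, leaving out replicates and the DESeq2 and edgeR tests were not run for that reason. Depth limits genes with few control reads: 12 measured genes had 3 reads or fewer in the control and 1 after ABA 3 h.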

Other observations

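Some genes were measured almost only through the ABA 3 h column. AT2G24945, annotated as an unknown protein, had 1 read in the control and stood at 10.7 CPM after ABA 3 h, against 0.012 CPM at 1 h of ABA, and 0.0106 and 0.0056 CPM at 1 h and 3 h of dehydration. The counting interval of its log2 ratio to the control was 8.41 to 16.20. Its FPKM is listed as N/A in the control and after ABA 3 h, so the second table gives no check of it.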
